A study of Homo sapiens with 8 samples.

Results

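The genes described here encode the cytosolic enzymes that build fatty acids from citrate and the enzymes of the endoplasmic reticulum that insert double bonds into them and lengthen them. They were picked by gene name: ACLY, ACACA and FASN for synthesis, SCD, SCD5, FADS1 and FADS2 for desaturation, and ELOVL1, ELOVL5 and ELOVL6 for elongation. All 10 were found among the 22554 features of the deposited tables, and all 10 passed the filter on low counts that left 15432 features for testing. RNA was sequenced from SKOV3, a human ovarian carcinoma line, as 4 LDL samples and 4 control samples. The LDL samples had received low-density lipoprotein at 50 µg/mL for 48 h, and the control samples had ordinary medium. Both groups grew in McCoy's 5A medium with 10% fetal bovine serum, which brings lipoproteins of its own. The labels give neither the kind of LDL nor whether replicate samples came from separate cultures. Each p-value below therefore reflects only the variation among these 8 libraries, part or all of which may be technical.

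ATP-citrate lyase, encoded by ACLY, cleaves citrate in the cytosol to acetyl-CoA. Acetyl-CoA carboxylase 1 (ACACA) turns acetyl-CoA into malonyl-CoA, and fatty acid synthase (FASN) condenses malonyl-CoA units into palmitate. ELOVL6 lengthens palmitate to stearate, SCD and SCD5 make monounsaturated fatty acids, and FADS2, ELOVL5 and FADS1 act in turn on the essential polyunsaturated fatty acids. ELOVL1 makes saturated and monounsaturated very long chains. Many of these genes are known targets of the SREBP transcription factors, which cells hold inactive when membrane cholesterol is plentiful, and raised fatty acid synthesis is a known trait of carcinoma cells.

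Total counts ran from 34682501 to 36780334 in the LDL samples and from 37189698 to 44883561 in the control samples, so each LDL library was shallower than each control library. The line's amplified receptor gene ERBB2 lay at 2200 to 3110 CPM (the count scaled to library size) in LDL and 2400 to 2720 CPM in control samples. Of 7 epithelial and ovarian carcinoma markers, 6 averaged at least 1 CPM, and MUC16 lay at 0.23 to 0.719 CPM in LDL and 0.645 to 1.09 CPM in control samples. PTPRC and HBB of blood, ADIPOQ and CIDEC of fat cells, and APOB and TTR of liver were at 0 in all 8 libraries. The blood and macrophage list summed to 48.8 to 53 CPM in LDL and 38.3 to 49.5 CPM in control samples, nearly all from CD68, a lysosomal protein gene that is not limited to macrophages. The fat cell list summed to 3.46 to 4.95 CPM in LDL and 3.81 to 4.65 CPM in control samples, led by FABP4, the liver list to at most 0.317 CPM in LDL and 0.309 CPM in control samples, and the endothelial list to 2.59 to 4.93 CPM in LDL and 3.77 to 4.63 CPM in control samples. Of 5 fibroblast markers, 4 averaged at least 1 CPM, led by COL1A1, and their sum ran from 158 to 419 CPM in LDL and from 359 to 385 CPM in control samples. The part of these markers in the results below was not tested.

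The stearoyl-CoA desaturase genes SCD and SCD5 are shown first because they are paralogs, and SCD was the member with the smallest p between the groups. The bases upstream of their RefSeq starts (GRCh38.p14) are printed up to the point where a GENCODE release 29 exon begins. The SCD stretch is chr10:100346983-100347123 on the plus strand, and the SCD5 stretch is chr4:82798858-82799046, read on the minus strand. Capitals mark CCAAT, the box bound by NF-Y, and GGGCGG, the box bound by SP1, on either strand.
SCD: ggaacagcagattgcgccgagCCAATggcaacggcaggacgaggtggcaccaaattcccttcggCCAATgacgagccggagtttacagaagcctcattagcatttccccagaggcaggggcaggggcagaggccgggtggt
SCD5: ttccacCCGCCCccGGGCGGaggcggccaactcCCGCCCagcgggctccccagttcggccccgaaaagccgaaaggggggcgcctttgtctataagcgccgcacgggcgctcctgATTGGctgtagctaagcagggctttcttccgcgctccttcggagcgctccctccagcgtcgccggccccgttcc

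The SCD stretch holds CCAAT at 2 places and no GGGCGG. The SCD5 stretch holds CCAAT at 1 place, on the reverse strand, and GGGCGG at 3 places. Past the printed stretches, nearer the start, GGGCGG also lies at -33 to -28 and -11 to -6 for SCD. For SCD5 it also lies at -24 to -19. RefSeq promoters were matched for 9 of the 10 genes, all but FASN, and 4 motifs were searched on both strands of the 250 bases before each start. CCAAT was found for 6 of these 9 genes, against 37% of all 27167 genes with such a window. GGGCGG was found for 8 of 9 genes, against 46.1% of all genes, and the E-box CACGTG only before ELOVL5, against 7.7% of all genes. TCACNCCAC, a core of the sterol regulatory element in the LDL receptor promoter, was found before none of the 9, against 1.09% of all genes. These are matches of letters, and ACACA, ACLY and FADS2 had more than 1 window each.

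Levels per gene length spanned a wide range within the pathway. In FPKM, the authors' unit, which corrects for gene length and depth, ELOVL1 was the highest member with 108 ± 2.37 FPKM in LDL and 106 ± 3.9 FPKM in control samples (SD, n = 4 each). ELOVL5 and ACLY came next, at 63.8 ± 5.26 and 60.3 ± 4.63 FPKM in LDL samples, and at 63.9 ± 2.13 and 64.0 ± 1.48 FPKM in control samples (SD, n = 4 each). These neighbours overlapped in both groups and stood in opposite order in them. FASN followed at 46.2 ± 4.19 FPKM in LDL and 44.1 ± 1.48 FPKM in control samples, FADS1 at 31.6 ± 2.35 FPKM in LDL and 28.4 ± 0.583 FPKM in control samples, and FADS2 at 21.6 ± 1.42 FPKM in LDL and 19.6 ± 1.02 FPKM in control samples (SD, n = 4 each). Each of these 3 stood clear of its neighbours in both groups.

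SCD, ACACA and SCD5 formed the next tier. SCD had 13.3 ± 2.16 FPKM in LDL and 10.5 ± 0.37 FPKM in control samples, ACACA 10.9 ± 1.36 FPKM in LDL and 11.2 ± 0.389 FPKM in control samples, and SCD5 9.21 ± 0.442 FPKM in LDL and 9.34 ± 0.331 FPKM in control samples (SD, n = 4 each). SCD stood above ACACA in the order of LDL means and below it in control samples, with overlapping ranges in both groups. ELOVL6 was by far the lowest, at 1.29 ± 0.118 FPKM in LDL and 1.24 ± 0.172 FPKM in control samples.

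**Figure D1:**
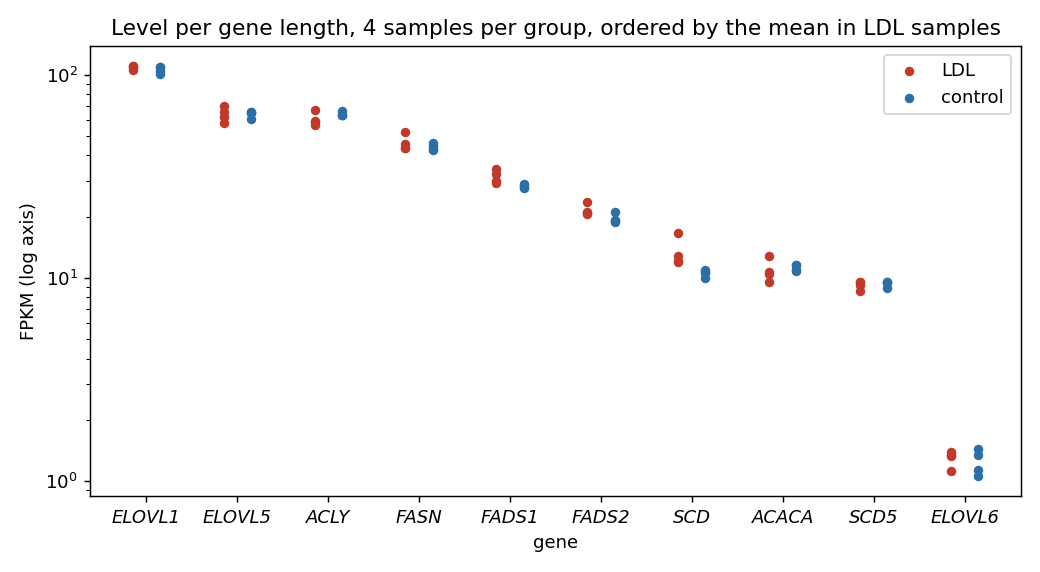
FPKM of each gene on a log axis, 1 point per sample, LDL samples left of control samples, with genes ordered by their mean in LDL samples. ELOVL1 stands highest near 108 FPKM and ELOVL6 lowest near 1.29 FPKM, and SCD is the member whose LDL points sit most visibly above its control points.

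Between the groups, none of the 10 genes passed the threshold, an adjusted p under 0.05 over all 15432 features in the quasi-likelihood test of edgeR, against 0.0648% of all features called in either direction, 0.0259% higher and 0.0389% lower. SCD was the member with the smallest p, at 1.26-fold, followed by the polyunsaturated desaturase genes FADS1 and FADS2 at 1.11-fold and 1.09-fold. Of the 10 genes, 6 had a log2 fold change above 0 and 4 below it, and their median was 0.046 against 0.00603 for all features tested. At an unadjusted p under 0.05, 3 members were higher in LDL samples (SCD, FADS1 and FADS2), against 2.88% of all features, and none was lower, against 2.72%. Such genes numbered 863 among all features. DESeq2 also called none of the 10. In such bulk libraries, fewer cells with a transcript and less of it per cell cannot be told apart. In 2 members, SCD and FADS1, every LDL sample exceeded every control sample in CPM, against 1.78% of all features, and in none was every LDL sample under every control sample, against 1.74%.

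**Figure D2:**
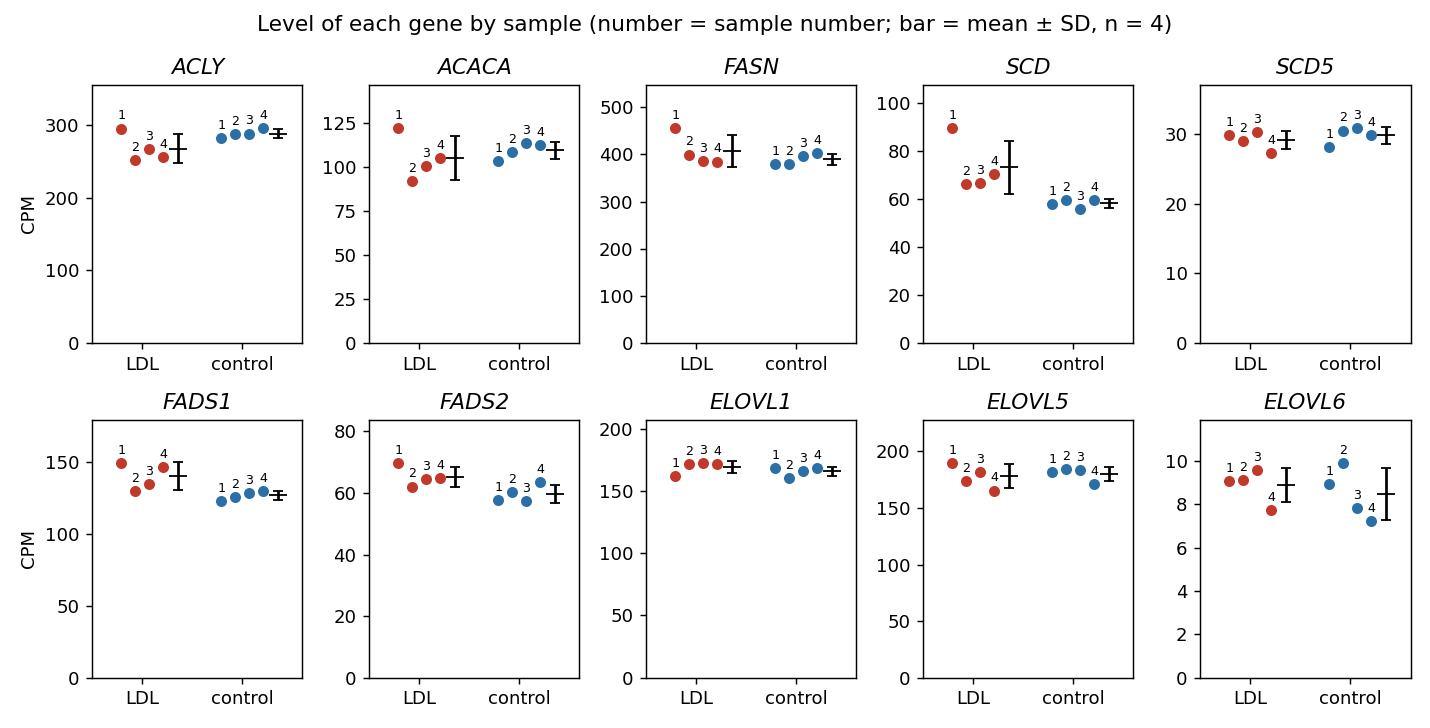
CPM of each gene by sample, with axes from 0, LDL left of control, sample numbers above the points and the mean ± SD (n = 4) as a bar. For SCD all LDL points, from 66.06 to 89.48 CPM, lie above the control points, from 55.62 to 59.48 CPM, and LDL sample 1 is the top point of 6 of the 10 genes.

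For synthesis, ACLY (ENSG00000131473, chromosome 17 from 41866908 to 41930542, minus strand, GRCh38) had 295.6, 252.1, 267.7 and 256.6 CPM in LDL samples 1 to 4, against 282.1, 287.4, 288.7 and 296.4 CPM in control samples 1 to 4. LDL samples 2, 3 and 4 lay below all control samples, and LDL sample 1 lay among them. LDL samples stood at 0.928 of control (95% interval 0.861 to 1.00), a log2 fold change of -0.11 (SE 0.0514, unadjusted p = 0.0515, edgeR adjusted p = 0.879). Leaving out LDL sample 1 gave -0.155, and edgeR's adjusted p was then 0.084.

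ACACA (ENSG00000278540, chromosome 17 from 37084988 to 37406818, minus strand), the committed step, had 122, 91.95, 100.6 and 104.9 CPM in LDL samples, against 103.2, 108.1, 113.2 and 112.5 CPM in control samples. The LDL samples spread to both sides of the controls, with a coefficient of variation of 12.1% against 4.23% in control samples. The ratio was 0.959 (95% interval 0.864 to 1.06, edgeR adjusted p = 0.947), with a log2 fold change of -0.06. Leaving out LDL sample 1 gave -0.14 (edgeR adjusted p = 0.251). Leaving out LDL sample 2 gave -0.0087 (edgeR adjusted p = 0.996).

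FASN (ENSG00000169710, chromosome 17 from 82078333 to 82098332, minus strand) had 456.3, 399.9, 386.5 and 385 CPM in LDL samples, against 380, 380.3, 396.2 and 403.4 CPM in control samples. LDL sample 1 stood above every other library, and LDL samples 2, 3 and 4 lay within the control range. The ratio was 1.04-fold, with a 95% interval of 0.963 to 1.13 (edgeR adjusted p = 0.928). Its log2 fold change was 0.0043 once LDL sample 1 was left out, against 0.06 with all 8 libraries. FASN, the best counted member, had at least 13365 counts in each library, and counting error there is 0.865% if counts are independent.

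For desaturation at the delta-9 position, SCD (ENSG00000099194, chromosome 10 from 100347124 to 100364834, plus strand) had 89.48, 66.06, 66.39 and 70.35 CPM in LDL samples, against 57.81, 59.48, 55.62 and 59.46 CPM in control samples. All LDL samples were above all control samples, and LDL sample 1 was well above the other 3. The log2 fold change was 0.33 (SE 0.0825, 95% interval 0.15 to 0.51, 1.11-fold to 1.42-fold). Its unadjusted p was 0.00115, which ranked 50 of 15432, and the edgeR adjusted p of 0.353 missed the threshold. DESeq2 gave an adjusted p of 0.0733. Leaving out LDL sample 1 gave 0.22 (edgeR adjusted p = 0.0562), and leaving out LDL samples 1 and 4 together gave 0.19 (adjusted p = 0.109). Over all alternatives the log2 fold change of SCD stayed between 0.19 and 0.37, and none brought it past the threshold.

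SCD5 (ENSG00000145284, chromosome 4 from 82629539 to 82798857, minus strand), the second human stearoyl-CoA desaturase, had 29.91, 29.01, 30.3 and 27.31 CPM in LDL samples, against 28.08, 30.52, 30.89 and 29.9 CPM in control samples. The groups overlapped, at 0.976 of control with a 95% interval of 0.883 to 1.08 (edgeR adjusted p = 0.965). The 2 paralogs were set against each other within each library. The FPKM ratio of SCD to SCD5 was 1.72, 1.31, 1.27 and 1.48 in LDL samples, against 1.19, 1.13, 1.04 and 1.15 in control samples, without overlap. On the log2 CPM scale this ratio was 0.36 higher in LDL samples, and the exact two-sided permutation p was 0.0286, the smallest that 4 against 4 samples allow. Adjusted over the 4 ratios tested, p was 0.114 in the exact permutation test.

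For polyunsaturated fatty acids, FADS1, the delta-5 desaturase gene, had 149.8, 130.3, 134.8 and 147.1 CPM in LDL samples, against 123.4, 126.1, 128.4 and 130 CPM in control samples. The groups did not overlap, but the lowest LDL sample stood barely above the highest control sample. LDL samples stood at 1.11-fold (95% interval 1.02 to 1.19), a log2 fold change of 0.15 (SE 0.0526, unadjusted p = 0.0136, edgeR adjusted p = 0.817). Leaving out LDL samples 1 and 4, its highest libraries, gave 0.0639 (edgeR adjusted p = 0.645).

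FADS2, the delta-6 desaturase gene, had 69.85, 62.11, 64.49 and 64.97 CPM in LDL samples, against 57.62, 60.47, 57.4 and 63.65 CPM in control samples. The groups overlapped through LDL sample 2 and control sample 4. The ratio was 1.09-fold (95% interval 1.00 to 1.19, unadjusted p = 0.0447, edgeR adjusted p = 0.878). FADS1 and FADS2 kept nearly the same ratio to each other. The FPKM ratio of FADS2 to FADS1 was 0.686, 0.706, 0.69 and 0.651 in LDL samples, against 0.686, 0.686, 0.659 and 0.724 in control samples. On the log2 CPM scale the difference was -0.0153 (exact two-sided permutation p = 0.629, adjusted over the 4 ratios 0.629).

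These 2 genes share a locus on chromosome 11. GENCODE release 29 places FADS1 (ENSG00000149485) from 61799625 to 61829318 on the minus strand and FADS2 (ENSG00000134824) from 61792980 to 61867354 on the plus strand, so that FADS1 lies wholly inside FADS2. The RefSeq starts used here give a shorter overlap: 61817003 for FADS1, and 61816203 and 61816404 for FADS2. From these starts the 2 genes are read in opposite directions and overlap only between the starts. FEN1, a flap endonuclease gene, also lies inside the GENCODE limits of FADS2, on the same strand as FADS2. Library preparation kept strand, but no label says whether counting used it, so reads where these genes overlap may have been assigned to either. FEN1 had 188 ± 7.7 CPM in LDL and 190 ± 3.12 CPM in control samples (SD, n = 4 each, edgeR adjusted p = 0.987). The remaining member of the cluster, FADS3, from 61873519 to 61892051, had 97.8 ± 7.29 CPM in LDL and 97.0 ± 2.32 CPM in control samples (edgeR adjusted p = 0.992, n = 4 each).

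For elongation, ELOVL1 (ENSG00000066322, chromosome 1 from 43363397 to 43368074, minus strand) had 161.9, 171.8, 172.9 and 171.5 CPM in LDL samples, against 168.5, 160.4, 165.9 and 168.6 CPM in control samples. LDL samples 2, 3 and 4 lay above all controls and LDL sample 1 was the second lowest of the 8 libraries, opposite to its place in most members. The ratio was 1.02-fold (95% interval 0.954 to 1.09, edgeR adjusted p = 0.954).

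ELOVL5 (ENSG00000012660, chromosome 6 from 53267398 to 53349179, minus strand), the elongase of polyunsaturated chains, had 190, 173.8, 182.1 and 165.4 CPM in LDL samples, against 181.6, 184.7, 183.1 and 171.4 CPM in control samples. The groups overlapped, at 0.987 of control (95% interval 0.916 to 1.06, edgeR adjusted p = 0.977). ELOVL6 (ENSG00000170522, chromosome 4 from 110045846 to 110199199, minus strand) had 9.081, 9.14, 9.583 and 7.75 CPM in LDL samples, against 8.931, 9.922, 7.85 and 7.219 CPM in control samples. It had the widest interval of the members, 0.874 to 1.26 around 1.05-fold (edgeR adjusted p = 0.961). Its counts of 269 to 369 per library carry a counting error of up to 6.1%, against a coefficient of variation of 8.91% in LDL and 14.1% in control samples.

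**Figure D3:**
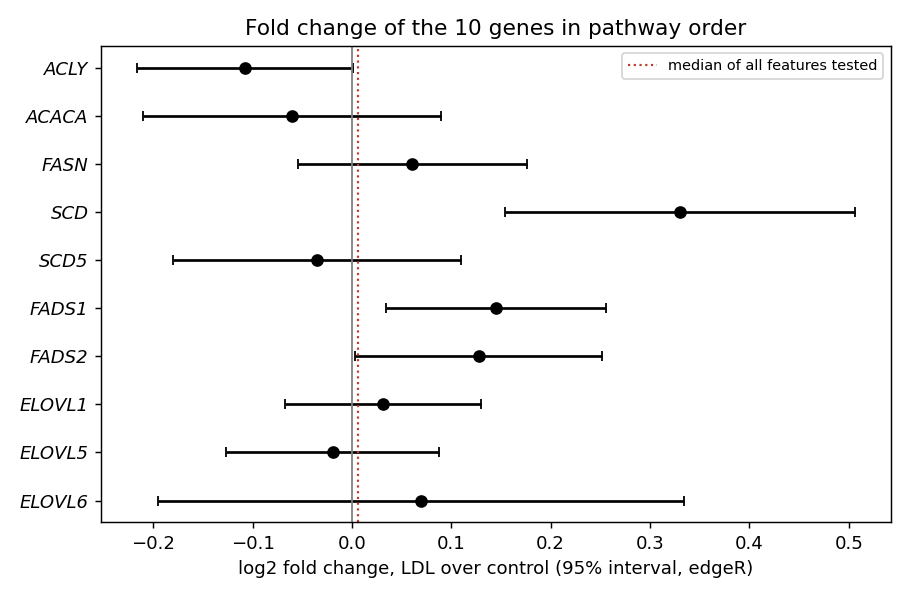
Log2 fold change of each gene, LDL over control, with its 95% interval from edgeR, in pathway order from top to bottom. SCD at 0.33, FADS1 at 0.15 and FADS2 at 0.13 have intervals above 0, the other 7 intervals include 0, and the dotted line is the median of all features at 0.00603.

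The other 2 ratios compared enzymes with related roles. The log2 CPM of FASN minus that of ACACA averaged 1.96 ± 0.11 in LDL and 1.84 ± 0.0329 in control samples (SD, n = 4 each; exact two-sided permutation p = 0.0571, adjusted over 4 ratios 0.114). ELOVL6 minus ELOVL5 averaged -4.32 ± 0.0884 in LDL and -4.41 ± 0.166 in control samples (SD, n = 4 each; exact two-sided permutation p = 0.4, adjusted 0.533). Neither difference passed the threshold.

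By library, LDL sample 1 stood apart for most members. LDL sample 1 was the highest of the 8 libraries for ACACA, FASN, SCD, FADS1, FADS2 and ELOVL5, and the second highest for ACLY. Averaged over the 10 genes, log2 CPM relative to the mean of all libraries was 0.13 in LDL sample 1, and -0.0203, 0.0199 and -0.0275 in LDL samples 2, 3 and 4. It was -0.0505, -0.0136, -0.0268 and -0.0133 in control samples 1 to 4. LDL samples 2 and 4 lay within the control range and LDL sample 3 above it. Over all features tested, LDL sample 4 stood apart instead. On the first principal component, the axis of largest variation, it lay at 46.05, against -17.37 to 1.856 in the other libraries. Without LDL sample 1 the median log2 fold change of the members was 0.03, and at an unadjusted p under 0.05 there were 2 members higher, SCD and FADS1, and 2 lower, ACLY and ACACA, against 2273 of 15625 features in either direction.

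**Figure D4:**
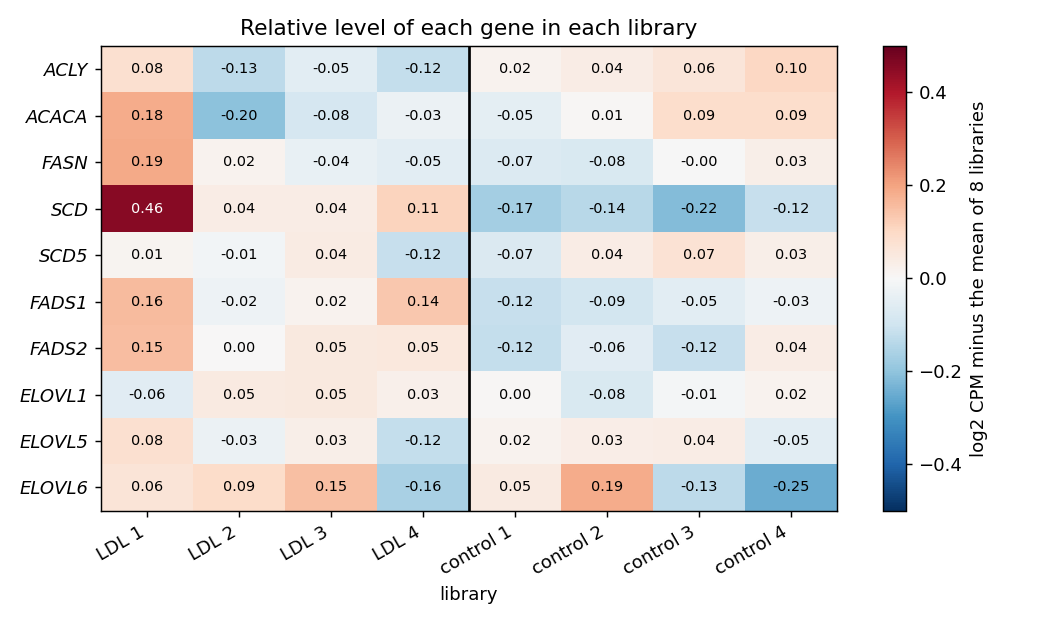
Log2 CPM of each gene minus its mean over the 8 libraries, with LDL libraries left of the line and control libraries right of it. LDL sample 1 holds the largest value, for SCD, and is above 0 for all members but ELOVL1.

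The wider pathway was described through 46 further genes in 7 lists, of which 44 were tested. Of these, 36 had a log2 fold change above 0, against 52.3% of all features, with a median of 0.0711. Of all features 0.0259% were called higher, and of these 44 genes 1, INSIG1, passed the threshold, higher. INSIG1 encodes the protein that holds the SREBP complex in the endoplasmic reticulum, and it is itself an SREBP target. It averaged 44.6 ± 6.31 CPM in LDL and 30.9 ± 1.47 CPM in control samples (SD, n = 4 each; log2 fold change 0.53, edgeR adjusted p = 0.0347). It was no longer called without LDL sample 2, LDL sample 3 or any 1 control (edgeR adjusted p between 0.12 and 0.278), with limma voom (0.0609) or with limma on FPKM (0.185 to 0.537). At an unadjusted p under 0.05, 7 of the 44 were higher and 0 lower, against 2.88% and 2.72% of all features.

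Among the regulators, the SREBP genes stood at different ratios. SREBF1, whose SREBP-1c product mainly drives fatty acid genes, had 47.0 ± 4.81 CPM in LDL and 45.2 ± 3.44 CPM in control samples (log2 fold change 0.06, edgeR adjusted p = 0.951, n = 4 each). SREBF2, which mainly drives sterol genes, had 135 ± 7.17 CPM in LDL and 120 ± 3.0 CPM in control samples, without overlap (log2 fold change 0.17, edgeR adjusted p = 0.625, n = 4 each). The difference between the 2 genes was not tested. MLXIPL, which encodes the carbohydrate-responsive factor ChREBP, was nearly silent, with 27 counts over the 4 LDL and 50 over the 4 control libraries.

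Genes that supply acetyl-CoA and NADPH all had log2 fold changes above 0, 6 of 6, with a median of 0.0983, against 52.3% of all features above 0. Within this list the log2 fold changes ran from 0.0124 (ME1, SE 0.0721) to 0.151 (ACSS2, SE 0.0612). The member with the smallest p was ACSS2, the cytosolic acetyl-CoA synthetase, with 41.8 ± 1.66 CPM in LDL and 37.7 ± 1.33 CPM in control samples (edgeR adjusted p = 0.849, n = 4 each), without overlap. The mitochondrial fatty acid synthesis list was also at 6 of 6 above 0 (median 0.0794), with the condensing enzyme gene OXSM at 1.19-fold (edgeR adjusted p = 0.882). The lowest gene of that list, HSD17B8, had a log2 fold change of 0.0169 (SE 0.15). Of 10 further elongases and elongation cycle genes 7 lay above 0 (median 0.049). HSD17B12, the ketoacyl reductase of the cycle, had the smallest p, at 1.12-fold (edgeR adjusted p = 0.878), with overlapping groups. HACD4 of the same list had nearly the same unadjusted p (0.0425 against 0.042, edgeR). It stood at 1.205-fold (edgeR adjusted p = 0.878), without overlap.

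The remaining lists also held no gene past the threshold, and their counts above 0 stand against 52.3% of all features. FADS3 and the cytochrome b5 system, which passes electrons to the desaturases, had 4 of 4 above 0 and a median of 0.0569, with CYB5B at 1.06-fold (edgeR adjusted p = 0.884). The lowest of them, FADS3, had a log2 fold change of 0.0112 (SE 0.0592). The acyl-CoA synthetases had 4 of 4 tested genes above 0 and a median of 0.0388, with ACSL3 at 1.08-fold (edgeR adjusted p = 0.878). The lowest of them, ACSL1, had a log2 fold change of 0.000546 (SE 0.0663). ACACB and the regulators of the carboxylases had 3 of 5 tested genes above 0 and a median of 0.0328, with MLYCD, malonyl-CoA decarboxylase, at 1.09-fold (edgeR adjusted p = 0.907). THRSP and ACSL6 were too low to test: THRSP had 4 counts over the LDL and 13 over the control libraries, and ACSL6 had 0 over the LDL and 6 over the control libraries.

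Set beside them, the 21 cholesterol synthesis enzymes had 18 log2 fold changes above 0 and a median of 0.23, and 2, MSMO1 and CYP51A1, passed the threshold, higher. Of all features, 52.3% lay above 0 and 0.0259% were called higher. MSMO1 was no longer called without LDL sample 2 or 3 or control sample 1, 3 or 4 (adjusted p from 0.0522 to 0.142), nor CYP51A1 without LDL sample 2 or 3 or any control sample (adjusted p from 0.0874 to 0.262). Limma on FPKM did not call CYP51A1 in any of 3 fits (adjusted p from 0.103 to 0.173) or MSMO1 with no minimum (adjusted p = 0.169). At an unadjusted p under 0.05, 16 of these 21 were higher and 0 lower, against 2.88% and 2.72% of all features. The difference between the lists was not tested. By library, the mean relative level of the cholesterol enzymes was 0.0961, 0.14, 0.14 and 0.0283 in LDL samples 1 to 4, and between -0.11 and -0.0803 in control samples, so no LDL sample overlapped the controls. LDL sample 1, the highest library in the mean of the 10 genes, lay below LDL samples 2 and 3 for the cholesterol enzymes. For the other fatty acid genes tested, the mean was 0.0117, 0.0671, 0.0325 and 0.0114 in LDL samples 1 to 4. In control samples 1 to 4 it was -0.0929, 0.0232, -0.0219 and -0.031. LDL samples 1 and 4 thus lay below control sample 2 for these genes, and the groups overlapped.

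**Figure D5:**
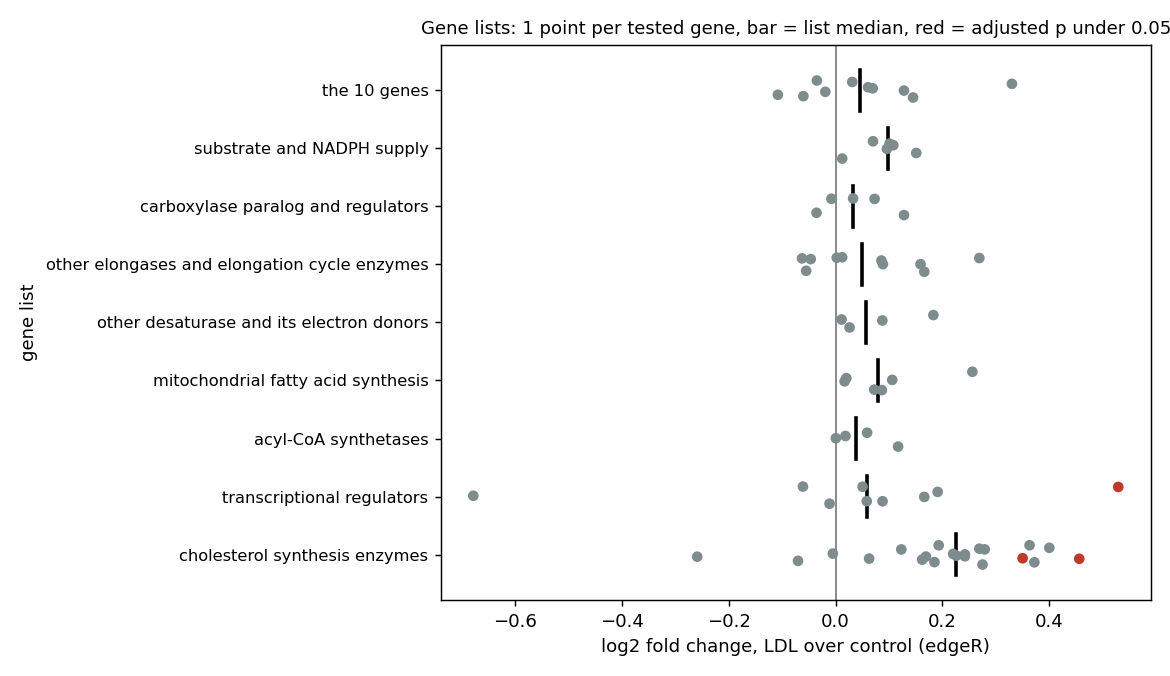
Log2 fold change, LDL over control, of each tested gene in the 10-gene set, the 7 other fatty acid lists and the cholesterol synthesis enzymes, with list medians as bars and genes past the threshold in red. The 10 genes have a median of 0.046 and no red point, and the cholesterol enzymes a median of 0.23 and 2 red points.

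The features most like SCD over the 8 samples, by root mean square difference of log2 CPM centred on each gene's mean, were EFCAB2 at 0.0703, the unnamed assembled feature MSTRG.24149 at 0.0894 and SPRED3 at 0.0928, among 13627 features with at least 1 CPM. The profile of SCD itself had an SD of 0.22 on that scale. EFCAB2 had 3.4 CPM in LDL and 2.76 CPM in control samples and SPRED3 6.78 CPM in LDL and 5.64 CPM in control samples, both far lower in counts than SCD. None of the 3 passed the threshold (edgeR adjusted p from 0.849 to 0.884).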

How the data were processed

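Per the labels' protocols, libraries that keep strand were made from total RNA with a TruSeq mRNA kit, a type that selects poly(A) RNA. GRCh38, DESeq2 1.26.0, HISAT2 and featureCounts appear in the submitters' processing notes without their roles. The deposited table of estimated counts holds whole numbers and needed no rounding. Its low values are uneven, with 55.17% even among those of 1 to 20. The authors deposited FPKM as well, which correct for gene length and depth and served for levels between genes and for ratios of paired members by library.

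Counts were tested with edgeR 4.0.16 in R 4.3.3: TMM, filterByExpr, robust quasi-likelihood fit, group as the only term, Benjamini-Hochberg over all 15432 features, threshold 0.05. Intervals are 95% intervals. CPM used the full library total. Depth ran from 34682501 to 44883561 counts per library, and counting errors cover counting only. They treat each count as an independent event, which was not tested. Tests of ratios took log2 CPM (prior count 2) and exact permutation. Relative levels came from the same scale.

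Alternatives were other normalizations and filters, DESeq2 1.42.0, limma 3.58.1 (voom, and log2(FPKM + 1) or log2(FPKM + 0.1) above a minimum mean of 0.5 FPKM, or with none), the replicate number as a block, each library left out, LDL samples 1 and 4 left out, and equal depth by thinning. On 5 simulated data sets of 15432 genes, the LDL over control test called 28% of genes changed 1.25-fold and 92% of those changed 4-fold. Of its calls, 8.71% were false. Each simulated set held more changed genes than the test called in the data. That makes the adjusted threshold easier to pass, so the 28% may be too high for these data. The simulation gave each gene the same spread in both groups. In the data the coefficient of variation of SCD was 15.2% in LDL and 3.14% in control samples. That of ELOVL6 was 8.91% in LDL and 14.1% in control samples, so these rates may not hold for such genes. Within a group, no library was a repeat sequencing of another: chi-square per degree of freedom between 2 libraries of a group was 6.67 to 27.5. This does not tell whether they came from separate cultures. Coordinates came from GENCODE release 29 and promoters from RefSeq (GRCh38.p14).

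The members and lists were chosen with earlier results of these data known. Named were all 10 members, the genes past the threshold or with the smallest p of each other fatty acid list, and the 3 features nearest to SCD. ERBB2, MUC16, COL1A1, CD68, FABP4, other markers at 0, FEN1, FADS3, SREBF1, SREBF2, MLXIPL, THRSP, ACSL6, MSMO1 and CYP51A1 were added for context after their values were seen. ME1, HSD17B8, HACD4 and ACSL1 were added in the same way.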

Additional observations from a re-analysis of the deposited data

Results flagged for a closer look

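In 5 of 48 groups of 4 values, 1 sample stood far from the other 3 by Dixon's ratio of gap to range, above its 95% critical value. Chance flags about 1 in 20 such groups, and the groups here share libraries. In 4 of the 5 the sample was LDL sample 1.

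For SCD the ratio was 0.835 in the FPKM of the LDL samples, where LDL sample 1 had 16.5 FPKM and the others 12.0 to 12.8 FPKM. In CPM it was 0.817 and stayed under the critical value. For FADS2 it was 0.862 in the FPKM of the LDL samples, with LDL sample 1 at 23.7 FPKM. For ELOVL1 it was 0.873 in CPM and 0.922 in FPKM, with LDL sample 1 lowest at 161.9 CPM and 104.9 FPKM. For ACLY it was 0.844 in the FPKM of the control samples, with control sample 4 highest at 66.2 FPKM.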

How the results depend on the processing

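None of the 10 members was called under any alternative, DESeq2, limma and each left-out library included, so no setting changed a member's side of the threshold. Directions held in all alternatives except that the log2 fold change of ELOVL5, from -0.0496 to 0.0157 with 1 library left out, stood at 0.0157 without LDL sample 4, and the log2 FADS2 to FADS1 ratio, from -0.0399 to 0.01, stood at 0.01 without LDL sample 4 and 0.00371 without control sample 4. The cause was not tested. The count over all features, 10, was 43 with DESeq2, 248 without LDL samples 1 and 4, 5 with log2(FPKM + 0.1) and 2 with log2(FPKM + 1) and no minimum, and with 1 library left out it ran from 2 to 149. The labels do not say whether sample numbers mark pairs. Same-numbered samples correlated at -0.101 to 0.0602 in their deviations from the group means, and 2 of 4 LDL samples matched their own number best. So few correlations cannot decide whether the samples were paired. With the replicate block 2 features were called, and 0 of the other fatty acid pathway genes (INSIG1 at an edgeR adjusted p of 0.0783); MSMO1 and CYP51A1 were not called either (0.0783 and 0.234). Of those genes, 1 was called in the full data. With limma voom and all 3 FPKM fits there were 0, and with 1 library left out 0 to 1. The exact permutation p of the SCD to SCD5 ratio, before adjustment, was 0.0286 with any 1 LDL sample left out and 0.0571 with any 1 control left out. That of FASN to ACACA was 0.0286 in log2 FPKM and without LDL sample 4, and 0.0571 to 0.143 with any other library left out. Depth limits ELOVL6 most among the members.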
